A study of Mus musculus with 3 samples.

Results

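Genes for the factors that start and elongate protein synthesis, and for the aminoacyl-tRNA synthetases that load amino acids onto tRNA, were examined for the histone mark H3K27me3 in mouse kidney. The members were the protein-coding autosomal genes whose symbols begin with Eif1 to Eif6, Eef1 or Eef2, or consist of 1 to 3 letters followed by ars, ars1 or ars2. Eprs, which the letter pattern misses, was added by name. This gave 103 of 20665 protein-coding autosomal genes in the RefSeq GRCm38.p6 gene table. The 3 genes on the X and Y chromosomes that match the symbols were left out. Membership used symbols only and no measured value.

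The kidneys came from C57BL/6 mice that were ADA-treated (written as in the labels) or untreated, with 1 H3K27me3 ChIP-seq library each. The labels list 1 input sample, whereas each file header gives an input of its own, with 22100010 fragments for the ADA-treated and 23891586 for the untreated library. All chromatin was from whole kidney, precipitated with a Cell Signaling Technology antibody, and the ages of the mice and the number pooled per library are not given in the sources used here. A peak list shows no cell type, so tubular, glomerular and other cells cannot be told apart. The title also names mice without SAHH in podocytes, which were not analysed here. For the ADA-treated library the header gives 20602041 ChIP fragments and 17612 peaks, and for the untreated library 18849785 fragments and 8074 peaks. With 1 library per group no difference below has a replicate check, the groups were not tested against each other.

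H3K27me3 is written by the Polycomb complex PRC2 and is known for genes that are kept silent, most of all developmental regulators with CpG-rich promoters. The genes described here are the opposite in character. Most of them are transcribed in every cell, because a cap-binding complex, a start-codon scanning complex, elongation GTPases and a full set of synthetases are needed wherever proteins are made. A peak at such a gene records that precipitated fragments were denser there than the genome-wide level, in a mixture of all kidney cells. It does not say that the gene was silent in any of them.

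Translation genes had H3K27me3 peaks at a larger share of their number than all genes did, in each library. Marked here means that either gene end has a peak no more than 2 kb away. In the ADA-treated library 70 of 103 members were marked (68.0%, exact 95% interval 58.0 to 76.8%), against 49.0% of all protein-coding autosomal genes. In the untreated library 38 were marked (36.9%, 27.6 to 47.0%), against 24.1% of all genes. Intervals are Clopper-Pearson and cover counting error only. Both lists marked 37 members (35.9%, all genes 21.8%), and the ADA-treated list alone marked 33 (32.0%, all genes 27.2%). Only Eef2k was marked in the untreated list alone (0.971% of the members, all genes 2.3%). No peak of either list lay near the remaining 32. A gene without a peak is below the smallest pileup listed, 10 fragments in both lists, and is not shown to lack the mark.

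Marked genes were unevenly spread over the families. All 9 genes of the eIF1, eIF5 and eIF6 group and 13 of 14 eIF4 genes had an ADA-treated peak, and 7 and 9 of them had an untreated one. The genes around eIF2, the factor that brings the initiator tRNA, had shares near those of all genes. They were 4 genes for eIF2 subunits and relatives, 5 eIF2B genes and 4 eIF2 kinases. In each group 2 genes had an ADA-treated peak (50%, 40% and 50%, all genes 49.0%). An untreated one was found at 1 gene of each (25%, 20% and 25%, all genes 24.1%). The eIF3 complex had 8 of 14 genes in the ADA-treated library (57.1%) and 2 of 14 in the untreated library (14.3%). Elongation factors and their modifying enzymes had 10 and 6 of 15, cytosolic synthetases 14 and 7 of 18, and mitochondrial synthetases 8 and 3 of 17. The intervals of these small groups are wide (52.4 to 93.6% for the cytosolic and 23.0 to 72.2% for the mitochondrial synthetases in the ADA-treated library), and the differences between families were not tested.

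**Figure D1:**
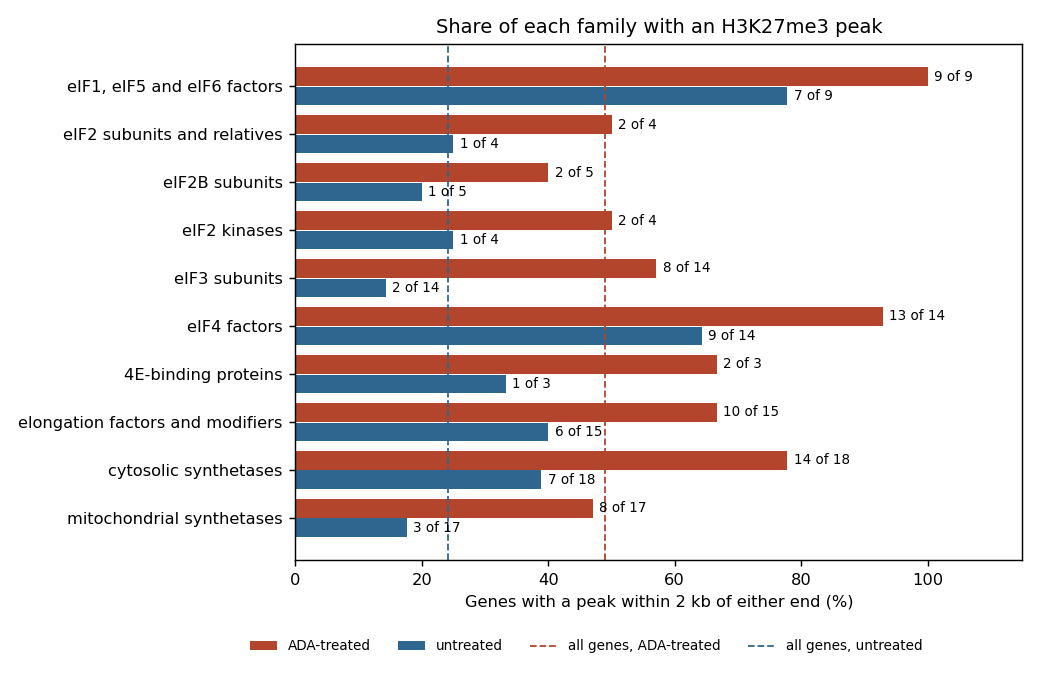
Share of the genes of each family with a peak within 2 kb of either gene end (percent), in the ADA-treated library (upper bar) and the untreated library (lower bar), with the number marked of the number in the family. The dashed lines are the shares of all protein-coding autosomal genes, 49.0% and 24.1%; the eIF4 factors, with 13 and 9 of 14 genes, lie above both.

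The values of single peaks are given as fragment pileup, the number of fragments stacked over a position, averaged by the authors' peak caller over the peak. The caller set it against a background of 3.24 fragments in both lists, so a pileup of 12.1 is a fold enrichment of 3.09. Among the 70 marked members the median pileup was 13.4 in the ADA-treated list (quartiles 11.5 and 14.8), and among 38 it was 10.9 in the untreated list (10.5 and 11.6). The strongest peaks of all marked genes had medians of 13 and 11.0, so the members' medians were close to those of all marked genes. In the untreated list most of the members' peaks lay close to the smallest pileup listed. There 4 of 38 had 12 or more (10.5%), a smaller share than among all marked genes (20.1%). In the ADA-treated list 46 of 70 had 12 or more (65.7%, all marked genes 66.6%).

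The strongest ADA-treated peaks outside Lars2 belonged to the cap-binding machinery and to an enzyme that modifies eEF2. Eif4e, which encodes the protein that binds the mRNA cap, had a pileup of 27.2 in the ADA-treated library, against 10.6 in the untreated library. The ADA-treated peak, at chr3:138527249-138528161 (GRCm38), began 1058 bp inside the annotated gene. RefSeq lists 2 starts for Eif4e, and the second, 1077 bp further in than the first, lies inside this peak. Eef2kmt, which encodes the methyltransferase that modifies a lysine of eEF2, followed with 23.3 and 11.1. Eif4g3 and Eif4enif1 both had 19.6 in the ADA-treated library, with 10 and 11.8 in the untreated library. Eif4g3 is a form of the eIF4G scaffold and Eif4enif1 the protein that carries eIF4E into the nucleus. The Eif4enif1 peaks also lay within reach of Sfi1. When peaks up to 5 kb from either end counted, another, denser peak was the strongest at Eif4enif1 in both libraries. Its fold enrichment was 18.2 in the ADA-treated and 18.4 in the untreated library. Eif5, the GTPase-activating partner of eIF2, had 19.1 and 10.4. Within 2 kb of these 5 genes the untreated peaks lay between 10 and 11.8, close to the smallest value listed. Their ADA-treated peaks stood well above the median of 13.4. The promoters of Eif4e (second start), Eif5 and Eef2kmt are shown here as examples with a start inside the ADA-treated peak. The ADA-treated peaks of Eif4g3 and Eif4enif1 also cover an annotated start, and their promoters are not shown. Eef2 is added as the gene with the strongest untreated peak at its start, and Eef2k as the member marked in the untreated list alone. Each line is the 250 bases before the annotated start inside the peak, 5′ to 3′ on the gene's strand, from RefSeq (GRCm38.p6), and capitals mark CpG dinucleotides.
Eif4e: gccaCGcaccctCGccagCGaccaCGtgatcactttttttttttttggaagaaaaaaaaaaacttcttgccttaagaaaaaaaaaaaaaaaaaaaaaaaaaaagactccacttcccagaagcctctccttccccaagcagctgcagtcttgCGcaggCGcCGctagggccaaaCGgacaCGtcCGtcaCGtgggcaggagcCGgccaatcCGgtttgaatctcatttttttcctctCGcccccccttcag
Eif5: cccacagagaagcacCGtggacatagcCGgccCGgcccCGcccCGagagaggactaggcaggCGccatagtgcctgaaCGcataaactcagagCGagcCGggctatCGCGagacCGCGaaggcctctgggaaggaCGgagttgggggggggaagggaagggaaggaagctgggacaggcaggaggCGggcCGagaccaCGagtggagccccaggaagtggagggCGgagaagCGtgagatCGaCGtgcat
Eef2kmt: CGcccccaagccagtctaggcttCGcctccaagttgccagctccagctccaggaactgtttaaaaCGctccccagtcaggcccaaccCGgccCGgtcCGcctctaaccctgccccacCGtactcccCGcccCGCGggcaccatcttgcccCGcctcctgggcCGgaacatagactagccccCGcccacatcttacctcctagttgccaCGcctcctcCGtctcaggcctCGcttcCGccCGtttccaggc
Eef2: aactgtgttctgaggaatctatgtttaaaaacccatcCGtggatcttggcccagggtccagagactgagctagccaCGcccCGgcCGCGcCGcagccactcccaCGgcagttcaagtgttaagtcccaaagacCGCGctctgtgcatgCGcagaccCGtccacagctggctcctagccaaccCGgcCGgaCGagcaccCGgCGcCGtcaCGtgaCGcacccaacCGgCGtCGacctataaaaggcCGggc
Eef2k: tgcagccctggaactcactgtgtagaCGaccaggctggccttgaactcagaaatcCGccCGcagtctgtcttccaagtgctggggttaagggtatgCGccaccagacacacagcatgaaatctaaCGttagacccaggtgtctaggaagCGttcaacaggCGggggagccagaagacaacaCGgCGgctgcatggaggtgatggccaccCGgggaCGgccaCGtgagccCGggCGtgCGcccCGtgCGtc

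These windows lie at chr3:138527018-138527267 (plus strand) for Eif4e, chr12:111537851-111538100 (plus) for Eif5, chr16:5255957-5256206 (minus) for Eef2kmt, chr10:81176381-81176630 (plus) for Eef2 and chr7:120842581-120842830 (plus) for Eef2k. They hold 14, 21, 18, 23 and 17 CpGs. The E-box letters CACGTG, a motif bound by Myc and its relatives, occur 2 times before the second start of Eif4e and once each before the starts of Eef2 and Eef2k.

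**Figure D2:**
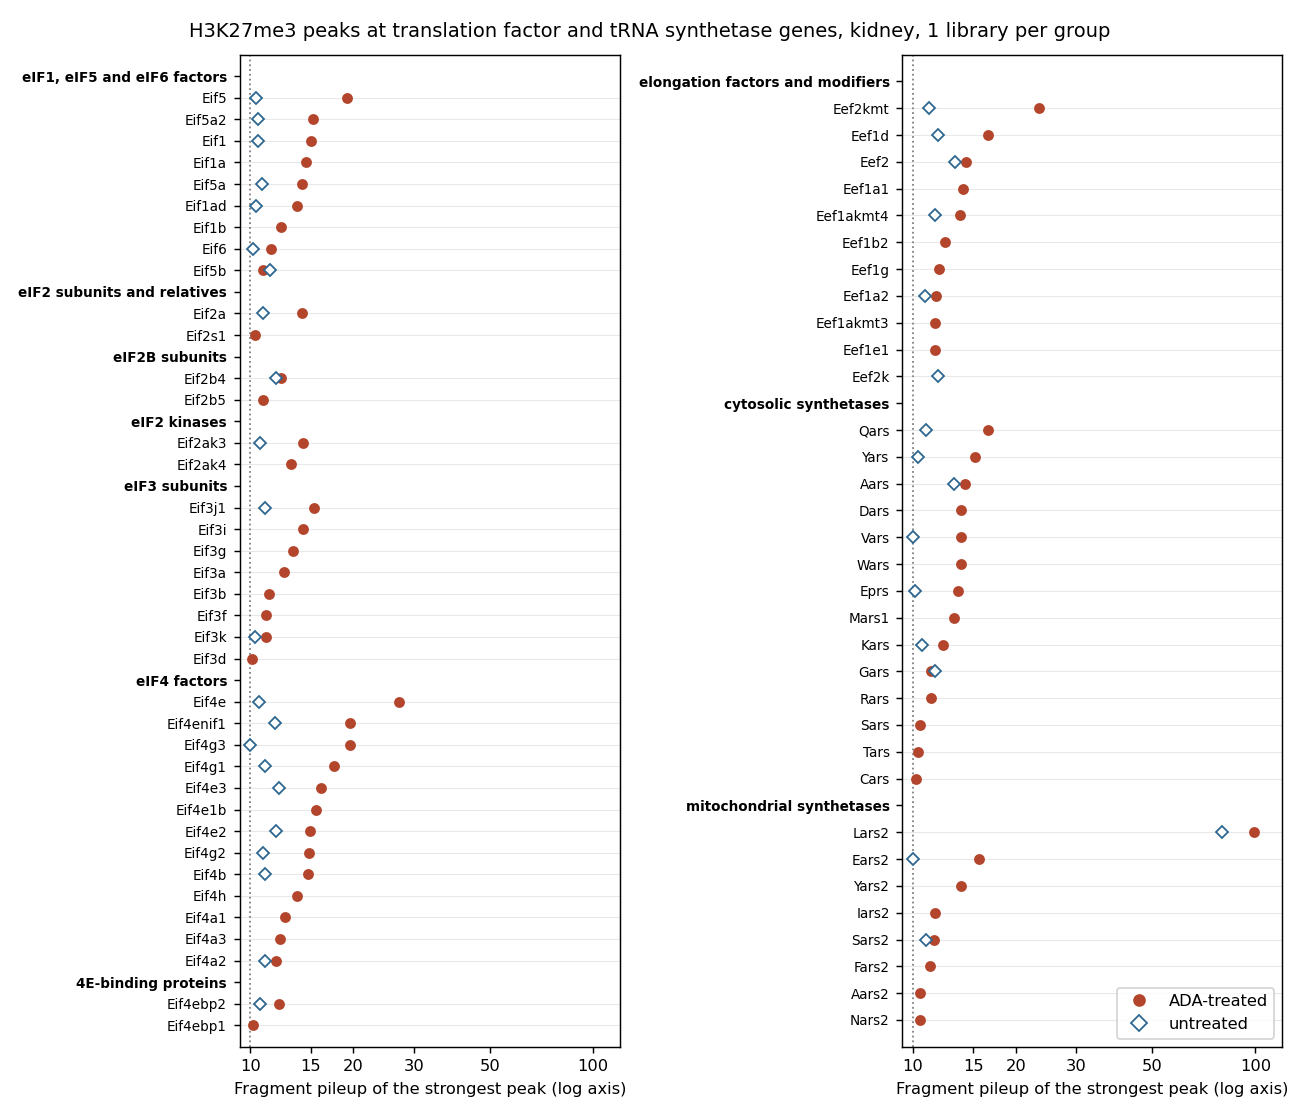
Fragment pileup (log axis) of the strongest peak within 2 kb of each marked member, by family, in the ADA-treated library (filled circles) and the untreated library (open diamonds), 1 library each. The dotted line is the smallest pileup listed, 10; most diamonds lie between 10 and 12, and Lars2 stands apart at 99.2 and 80.1.

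Among the other cap-complex genes, the helicase Eif4a2 had 11.9 in the ADA-treated library, against 11.0 in the untreated library, and the scaffold Eif4g1 17.6 and 11.0. The helicase cofactor Eif4b had 14.7 and 11.0. Eif4e2 and Eif4e3, relatives of eIF4E that also bind the cap, had 14.9 and 16.1 in the ADA-treated library and 11.9 and 12.1 in the untreated one. The helicase Eif4a1 (12.6) and its cofactor Eif4h (13.7) were marked by the ADA-treated list alone. The same was true of Eif4e1b (15.5), a form known from germ cells, whose peak lay outside the gene, 337 bp from an end, and within reach of Tspan17. The eIF4 gene without a peak was Eif4a3l1, a near copy of Eif4a3. Whether fragments of the copies were hard to place was not tested. Of the 4E-binding proteins, which hold eIF4E inactive until mTORC1 phosphorylates them, Eif4ebp2 had 12.1 at its start in the ADA-treated library. In the untreated library its only peak, of 10.7, lay 1477 bp beyond the other end and within reach of Nodal. Eif4ebp1 had 10.2 in the ADA-treated list alone, and Eif4ebp3 had no peak.

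All 9 genes of the eIF1, eIF5 and eIF6 group had an ADA-treated peak. Eif1, which keeps scanning ribosomes from starting at wrong codons, had 15.0 in the ADA-treated library, against 10.5 in the untreated library. Eif5a, the only protein known to carry hypusine apart from its close relative, had 14.1 and 10.8, and that relative, Eif5a2, had 15.2 and 10.5. Eif1a (14.5) and Eif1b (12.3) were marked by the ADA-treated list alone. Eif5b, the GTPase that joins the ribosomal subunits, was an exception to the usual order, with 10.9 in the ADA-treated library, against 11.4 in the untreated library. The strongest peaks of Eif6, a factor that keeps large ribosomal subunits apart, had 11.5 and 10.2 and lay outside the gene, 508 and 520 bp from an end, within reach of Mmp24. A second ADA-treated peak, of 10.9, covered an end of Eif6 itself.

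Genes of the eIF2 pathway, through which the integrated stress response lowers translation, had a peak at some members of each complex. Eif2s1, the subunit whose phosphorylation triggers that response, had a peak of 10.3 in the ADA-treated list alone, and it lay 345 bp before the gene over a start of the adjacent Atp6v1d. Eif2s2 had no peak, and Eif2a, an alternative initiator tRNA carrier, had 14.1 and 10.9. Of the exchange factor eIF2B, Eif2b4 had 12.3 and 11.9, Eif2b5 had 10.9 in the ADA-treated list alone, and Eif2b1, Eif2b2 and Eif2b3 had none. Of the kinases, Eif2ak3 (PERK, the sensor of unfolded protein in the endoplasmic reticulum) had 14.2 and 10.7 and Eif2ak4 (GCN2, the sensor of uncharged tRNA) had 13.1 in the ADA-treated list alone. The heme-regulated kinase Eif2ak1 and the double-stranded RNA sensor Eif2ak2 had no peak in either list. The eIF3 genes, which encode the largest initiation complex, had ADA-treated peaks of 10.1 to 15.3. Only Eif3j1 (15.3 and 11.0) and Eif3k (11.1 and 10.3) were also marked in the untreated library. The untreated peak of Eif3k lay outside the gene, 109 bp from its 5′ end, over a start of Map4k1. It did not overlap the ADA-treated peak, which covered the start of Eif3k. Of the other 6 marked eIF3 genes, Eif3i (14.2), Eif3g (13.3) and Eif3a (12.5) were highest. Eif3j1 has a close copy, Eif3j2, which had no peak. Whether reads of the copies were hard to assign was not tested.

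Elongation genes were split in a similar way. Eef2, the GTPase that moves the ribosome along the mRNA, had 14.3 in the ADA-treated library, against 13.3 in the untreated library. Both peaks covered its start and overlapped by 672 bp, and the untreated value was the highest of all members but Lars2. Eef1a1, which delivers loaded tRNA to the ribosome, had 14 in the ADA-treated list alone. Eef1a2, the form of muscle and nerve, had 11.7 and 10.8. Of the exchange complex that recharges eEF1A, Eef1d had 16.5 and 11.8, while Eef1b2 (12.4) and Eef1g (11.9) were marked by the ADA-treated list alone. Eef1akmt4, a methyltransferase gene, had 13.7 and 11.6, at peaks 783 and 862 bp beyond the gene that covered a start of Camk2n2. Eef2k, the kinase that inactivates eEF2, had a pileup of 11.8 at chr7:120842743-120843384 in the untreated library and no ADA-treated peak. The nearest ADA-treated peak lay 29532 bp away.

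Cytosolic synthetases were marked at 14 of 18 genes, and some of the strongest of these peaks lay beside the gene. Aars, for alanine, had 14.2 in the ADA-treated library, against 13.2 in the untreated library, from peaks 795 and 1024 bp beyond its 3′ end and within reach of Exosc6. The peaks of Qars, for glutamine, had 16.5 and 10.9 and covered a start of Qrich1. Gars, for glycine, was marked at its own start with 11.3 in the ADA-treated library and 11.6, from 19 bp inside the gene, in the untreated library. It was the other member with the higher untreated value, besides Eif5b. Eprs, for glutamate and proline, had 13.5 and 10.1 over an annotated start 1627 bp inside the gene. Wars (13.8), Dars (13.8) and Mars1 (13.2), for tryptophan, aspartate and methionine, led the 7 cytosolic synthetases marked in the ADA-treated list alone. Hars, Iars, Lars and Nars had no peak. Hars, Lars and Nars lie on chromosome 18, where 1 of 7 members was marked in the ADA-treated list, against 43.1% of all genes of that chromosome. This chromosome was singled out after the counts were seen. Hars and Hars2 adjoin on it, so the 7 are not all separate places.

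The mitochondrial synthetases, encoded in the nucleus and imported, held the strongest peak of all members, and 9 of the 17 had none. Lars2, for mitochondrial leucine, had a pileup of 99.2 in the ADA-treated library at chr9:123461789-123462196 and of 80.1 in the untreated library at chr9:123461796-123462197. These were the peaks of rank 5 and 4 in the 2 lists outside mitochondrial DNA. They were short (408 and 402 bp), shared 401 bp, and lay inside the gene 479 and 478 bp before its 3′ end. The start of Lars2 itself had no peak. The input did not correct such sites, since the local background was switched off in the peak calling, and whether this density comes from the mark was not tested. Without Lars2 the counts were 69 and 37 of 102 members. Ears2, for glutamate, had 15.6 and 10, and Sars2, for serine, 11.5 and 10.9, both over their starts and over those of Ubfd1 and Mrps12 on the other side. Yars2 (13.8), Iars2 (11.6) and Fars2 (11.2) were marked by the ADA-treated list alone, with Aars2 and Nars2. The other 9 had no peak in either list.

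Where a gene was marked in both libraries, the peaks mostly lay at the same place. The strongest peaks overlapped at 33 of 37 members (89.2%), against 84.1% of all genes marked in both. They lay apart at Eif4ebp2, Eif3k, Vars and Yars. The ADA-treated pileup was the higher in 35 of the 37 (94.6%), against 89.1% of all such genes. Its ratio to the untreated pileup had a median of 1.32 (quartiles 1.13 and 1.45), with extremes of 0.957 and 2.57, the last at Eif4e. For all genes marked in both lists the median was 1.24 (1.1 and 1.44). Members marked in both lists had a median ADA-treated pileup of 14.3, and members marked in the ADA-treated list alone 11.9. All genes had 14 and 12.4 in these classes.

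Peaks gathered at the 5′ ends of the genes. The RefSeq promoter table gives the strand for 77 of the 103 members. These 77 were marked more often (72.7% in the ADA-treated and 42.9% in the untreated library) than all 103 (68.0% and 36.9%). All genes with an entry had 49.2% and 24.1%, so the profile below rests on a more often marked part of the members. Among the 77, 56 had an ADA-treated peak, and in 50 of these (89.3%) the strongest lay nearer the 5′ than the 3′ end. Of the 33 with an untreated peak, 27 (81.8%) did. All genes with a strand gave 87.0% and 82.4%. At 100 bp inside the 5′ end, an ADA-treated peak covered 40 of the 77 members (51.9%), the highest point of the profile, and all genes reached 34.4% at 200 bp. An untreated peak covered 18 of 77 (23.4%) at 200 bp inside the gene, and all genes reached 12.8% there. By 1000 bp the shares were 7.79% and 3.9% for the members, against 10.9% and 4.95% for all genes. At 2000 bp they were 5.19% and 3.9% for the members, against 4.15% and 1.66% for all genes. An annotated start of the gene itself lay inside the strongest peak at 41 of 56 members (73.2%, all genes 70.5%) in the ADA-treated list and at 19 of 33 (57.6%, all genes 51.2%) in the untreated list. No peak was shared by a pair of members. With genes outside the group, 29 of the 70 strongest ADA-treated peaks and 18 of the 38 untreated ones were shared. The same share was not counted for all genes, so these counts are not set against a usual value. Sharing was common in all genes, where 10124 genes marked in the ADA-treated list had 8624 different strongest peaks. In the untreated list 4981 genes had 4200.

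**Figure D3:**
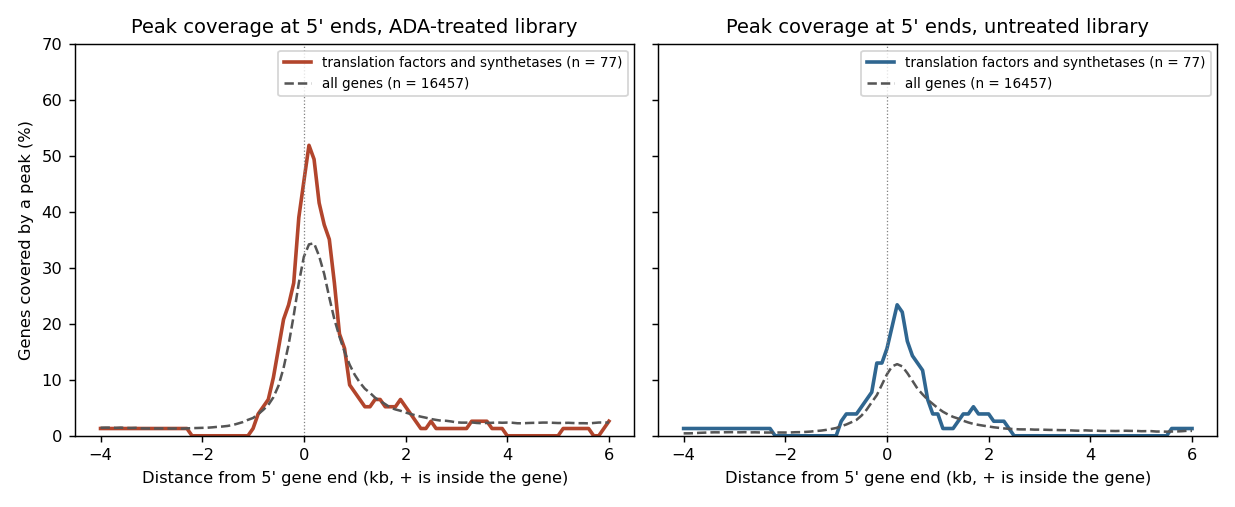
Percent of genes covered by a peak at each distance from the 5′ gene end (kb, positive inside the gene), in the ADA-treated library (left) and the untreated library (right). The solid line shows the 77 members with a known strand and the dashed line 16457 genes; the members peak at 51.9% and 23.4%, all genes at 34.4% and 12.8%.

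The members' promoters were rich in CpG, and the share of marked genes rose with CpG in all genes. In the 300 bp window from 250 bp before to 50 bp after the start, the members had a median of 22 CpGs (quartiles 17 and 29), against 14 (4 and 25) for all genes with an entry. Each gene had 1 window, at the annotated start nearest its 5′ end, which need not lie inside a peak. For Eif4e this was the first start, with 11 CpGs, and not the second start printed above. Only the 77 members with an entry are covered here, and they were marked more often than all 103. Members marked in both lists had a median of 26, members marked in the ADA-treated list alone 22, and members without a peak 19.5. For all genes these medians were 25, 21 and 4. Among promoters with 30 or more CpGs, 16 of 18 members (88.9%) had an ADA-treated peak, against 89.6% of all genes, and 12 (66.7%) an untreated one, against 52.5%. With 20 to 29 CpGs the members had 20 of 28 (71.4%, all genes 73.8%) and 9 of 28 (32.1%, all genes 34.4%). With 10 to 19 CpGs they had 18 of 27 (66.7%, all genes 55.3%) and 11 of 27 (40.7%, all genes 24.3%). At 20 or more CpGs the members were thus marked in the ADA-treated library about as often as other genes with such promoters. Of all genes, 4627 had 4 CpGs or fewer and were rarely marked (11.4% and 5.27%), while only 1 member, Eif4a3l1, was of this kind. By family, the eIF1, eIF5 and eIF6 genes (median 29) and the eIF4 genes (27) had more CpGs than the eIF2 kinases (17) and both groups of synthetases (19 each). Between them lay the eIF2B genes (23.5), the eIF2 subunits and relatives (21.5), the eIF3 genes (21) and the elongation genes (20). The medians of the eIF2 kinases, the eIF2B genes and the eIF2 subunits and relatives rest on 4 genes each. The order of the medians did not follow the marked shares throughout.

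**Figure D4:**
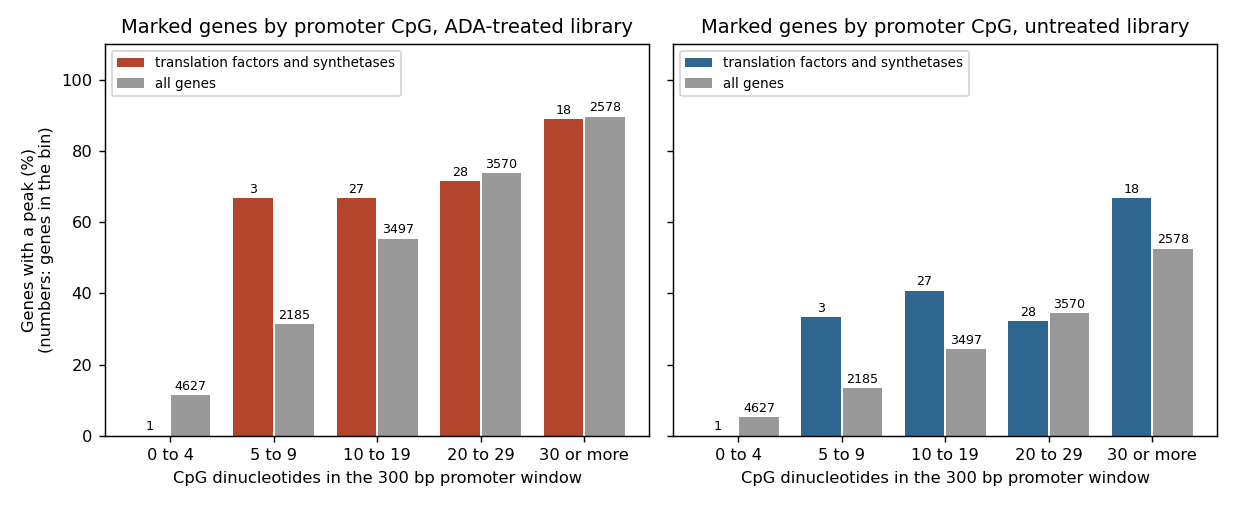
Percent of genes with a peak within 2 kb of either end, by the number of CpG dinucleotides in the 300 bp promoter window, for the members (left bar of each pair) and all genes (right bar), in the ADA-treated library (left) and the untreated library (right). The number above each bar is the number of genes; with 30 or more CpGs 88.9% of the members and 89.6% of all genes had an ADA-treated peak.

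Sequence motifs were searched on both strands of these windows. Eif4e was counted at its first start, which holds no E-box, so the E-boxes before its second start are not in these counts. The E-box CACGTG was found in 17 of 77 members (22.1%), against 7.97% of all promoters, and the YY1 core AAGATGG in 8 (10.4%), against 6.4%. Among promoters with 20 or more CpGs the E-box shares were 21.7% and 12%. An E-box was present at 7 of 32 members marked in both lists and 6 of 24 marked in the ADA-treated list alone. Members without a peak had it at 3 of 20. All genes of these classes had 10.3%, 10.6% and 5.39%, so the share was lowest without a peak there too. Eef1akmt4, marked in both lists, and Eef1akmt4-ece2, without a peak, have the same window. Its E-box is counted for each of them, also among the 17. The core of the amino acid response element, TGATGNAA on either strand, which is read by the stress factor ATF4, occurred in 5 members (6.49%, all promoters 3.38%). All 5 were cytosolic synthetases, of 11 with an entry. The matches of Gars, Iars, Tars and Yars are shown in capitals with 10 bases on each side, 5′ to 3′ on the gene's strand, because the motif was found in no other family of the members with an entry.
Gars: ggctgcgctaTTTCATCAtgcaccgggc
Iars: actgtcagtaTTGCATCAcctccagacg
Tars: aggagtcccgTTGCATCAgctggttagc
Yars: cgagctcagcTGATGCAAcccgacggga

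The stretches lie at chr6:55037961-55037988 for Gars (plus strand), chr13:49682127-49682154 for Iars (plus), chr15:11399656-11399683 for Tars (minus) and chr4:129189896-129189923 for Yars (plus). An ADA-treated peak covered a start of Gars, Tars and Yars. Iars had no peak in either list. A match of these letters is a description of the sequence and no measure of ATF4 binding; motifs were counted separately, whether or not their matches overlapped.

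A list of other pathway genes was counted in the same way. Of 55 genes for release, mitochondrial translation, synthetase partners, poly(A) binding, hypusine and diphthamide synthesis, the integrated stress response and mTORC1 signalling, 34 (61.8%, all genes 49.0%) had an ADA-treated peak and 18 (32.7%, all genes 24.1%) an untreated one, and the untreated list alone marked none. Genes of the integrated stress response had 8 and 3 of 10, and those from mTORC1 to translation 11 and 6 of 13. Mitochondrial translation factors had 3 and 3 of 9. Rptor, which recruits the substrates of mTORC1, had 13.9 and 13.2, and the ribosomal S6 kinase gene Rps6kb1 14.3 and 12.6. Sesn2, a leucine sensor upstream of mTORC1, had 12.6 and 12.5, and Mknk2, a kinase of eIF4E, 15.8 and 11.9. Dohh, the second enzyme of hypusine synthesis on eIF5A, had 12 in the ADA-treated library, against 12.4 in the untreated library. Ddit3 (16.8), a stress-induced transcription factor, Paip1 (17.3), Pabpc1 (15.6), Aimp2 (13.8) and Mtor itself (13.9) were marked by the ADA-treated list alone. Among other housekeeping families, 91 of 157 genes for cytosolic and mitochondrial ribosomal proteins (58.0%) and 18 of 42 proteasome genes (42.9%) had an ADA-treated peak, against 49.0% of all genes, and 37 (23.6%) and 8 (19%) an untreated one, against 24.1%.

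The surplus over all genes held at stricter calls in the ADA-treated list. In the untreated list the stricter calls left 3 and 4 members, too few to show whether it held. With a deposited q of at most 5%, 59 members were marked in the ADA-treated list (57.3%, all genes 40.2%), but only Lars2, Aars and Eef2 in the untreated list (2.91%, all genes 2.25%). With a pileup of at least 12, 46 members were marked in the ADA-treated list (44.7%, all genes 32.6%) and 4 in the untreated list (3.88%, all genes 4.84%), the fourth being Eif4e3. The ADA-treated list is the longer one, so it was also reduced to its 8074 strongest peaks. It then marked 48 members (46.6%, all genes 34.0%), beside the 38 of the untreated list, and 17 of them in that list alone (16.5%, all genes 16.4%).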

How the data were processed

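H3K27me3 ChIP-seq peaks of 1 ADA-treated and 1 untreated kidney library were used; the input had no role beyond the peak calling. The authors ran MACS 2.1.2 in broad mode for each library against its own input, with a p cutoff of 0.001, the local background off, and every fragment kept of alignment files whose names carry "rdup", per the file headers. The submitters' processing notes name CASAVA 1.4 and mm9; these sources do not state the aligner.

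The deposited signal is the fragment pileup averaged over a peak. The deposited fold enrichment is the ratio of pileup plus 1 to background plus 1, with 1 constant background per list. Both the −log10 p and the −log10 q column were deposited as the caller wrote them, and q is filled in although the file headers say that it was not calculated. The build was checked against the GRCm38.p6 gene table: 45.0% and 43.8% of the autosomal peak midpoints of the ADA-treated and the untreated list were at most 1 kb from a gene end, and 8.4% and 7.77% after the genes were shifted by -10 kb. Coordinates are therefore GRCm38, 1-based.

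Peaks were assigned to genes with Python 3.11.15, numpy 2.4.6 and pandas 2.3.3. The counts matched bedtools 2.31.1. On simulated data 200 of 200 planted genes were recovered and 0 of 200 decoys called, over 20665 genes. The strongest peak of a gene is the one with the smallest caller p. Exact binomial intervals came from scipy 1.17.1 and figures from matplotlib 3.10.9. Strand, starts and sequence came from the RefSeq promoter table, which has entries for 77 members. The promoter stretches of 1 member with a motif match are not reported here.

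Named genes were up to 3 per family and class with the smallest caller p, plus Lars2, Eif4e, the 4E-binding proteins, the eIF2 kinases, Eef2, Eef2k and Eif2s1, and up to 5 pathway genes per class. Eif5, Eef2kmt, Eif4g1, Eif4g3, Eprs, Eif1, Eif6, Eif4a2, Eif4b, Eif2b1, Eif2b2, Eif2b3, Eif2s2, Eef1a2, Aars2, Nars2 and genes named for having no peak, for non-overlapping peaks or for a motif were named after their values were seen. Members, families and lists were chosen with earlier results of these data known. The CpG bins, the coverage profile, the chromosome 18 count and the ribosomal and proteasome counts were also added after seeing the data. Alternatives were other gene windows, stricter peaks, lists of equal length, leaving out Lars2 and other overlap rules.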

Additional observations from a re-analysis of the deposited data

How the results depend on the processing

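With 1 library per group and peaks thresholded at a pileup of 10, counts rest on how the weak peaks are treated. Where the peak had to cover a gene end, the ADA-treated list marked 46 members and the untreated list 15, 13 in both and 2 in the untreated list alone (all genes 32.7%, 11.7%, 9.66% and 2.01%). When peaks anywhere in the gene or its 2 kb flanks counted, 3 were marked in the untreated list alone (2.91%, all genes 2.54%). With a q of at most 5%, 3 were marked in the untreated list and 3 in both (all genes 2.25% and 2.11%). The ADA-treated list alone then marked 56 (54.4%, all genes 38.1%) and the untreated list alone 0 (all genes 0.145%). With a pileup of at least 12, 46 were marked in the ADA-treated list, 4 in the untreated list, 4 in both and 0 in the untreated list alone. All genes had 32.6%, 4.84%, 4.06% and 0.774% in these classes. With lists of equal length, 17 were marked by the ADA-treated list alone (16.5%, all genes 16.4%). The untreated list alone marked 7 (6.8%, all genes 6.54%), so both shares were near those of all genes. The causes were not tested. Windows of 1 kb or 5 kb and the list without Lars2 kept every count within 1.5 times. Overlap of at least 50% of both peaks left 18 of 37 members with overlapping strongest peaks; with 50% of the shorter peak there were 32, and with any peaks near the gene 35. Of 433 fold enrichments of named members under the other settings, 426 came from the same peak and 7 from another. A further 95 were left without a peak. Stricter thresholds mostly keep the strongest peak or drop the gene, and leaving out Lars2 changes no peak. The number from the same peak was thus largely fixed in advance. No paired analysis was possible because each group has 1 library.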
